A study of Rattus norvegicus with 24 samples.

Results

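Tubulins are the subunits of microtubules. The genes described here are 10 named rat isotypes, 4 alpha (Tuba1a, Tuba1b, Tuba1c, Tuba4a) and 6 beta (Tubb2a, Tubb2b, Tubb3, Tubb4a, Tubb5, Tubb6), taken by their symbols from a table of 29539 genes. Of these, 9 have a row and all 9 passed the filter on low counts, and Tuba1a was not analysed here. They were chosen by name, with the higher level of Tuba1c in vehicle than in normal control already known. The values of wounded against normal brain, and edgeR's calls on them, therefore describe these genes and are not read as a test of them. The comparison of SKF with vehicle was not used in choosing them and is tested.

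RNA sequencing with poly(A) selection was done on 24 rat brain samples, with 8 in each of the groups normal control, vehicle and SKF. The third group takes its name from SKF-81297, which activates D1-like dopamine receptors, and the series text has it injected intraperitoneally once a day over 3 days, beginning 1 h after a stab wound of the forebrain. The vehicle group is named by that word alone and is taken to be wounded brain that got the carrier, and no drug or operation is named for the normal controls. The sources used here give no strain, age, sex, brain region or time of collection. Nothing in the labels ties each sample to its own animal, so an error or p-value here measures the spread between samples, which may be technical.

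A microtubule is built from dimers of 1 alpha and 1 beta tubulin, and vertebrates carry several genes for each. In brain, Tubb3 is used as a marker of neurons, Tubb2a and Tubb2b are abundant neuronal isotypes, Tubb4a is prominent in myelinating oligodendrocytes as well as neurons, and Tuba4a is an alpha isotype whose gene encodes no C-terminal tyrosine. Tubb5 and Tuba1b are expressed in many tissues and in dividing cells, and Tubb6 and Tuba1c are minor isotypes of the adult brain.

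The promoters of 3 isotypes are shown because their genes differ in direction: Tuba1c and Tubb2b were higher in wounded brain and Tubb4a was lower. Each is a RefSeq GRCr8 window from 250 bases before to 50 bases after an annotated start, 5′ to 3′ on the gene's strand. The windows lie at chr7:132070734-132071033 (+), chr17:30952836-30953135 (+) and chr9:2012232-2012531 (−). Capitals mark matches on either strand to the CCAAT box (CCAAT) or the GC box (GGGCGG).
Tuba1c: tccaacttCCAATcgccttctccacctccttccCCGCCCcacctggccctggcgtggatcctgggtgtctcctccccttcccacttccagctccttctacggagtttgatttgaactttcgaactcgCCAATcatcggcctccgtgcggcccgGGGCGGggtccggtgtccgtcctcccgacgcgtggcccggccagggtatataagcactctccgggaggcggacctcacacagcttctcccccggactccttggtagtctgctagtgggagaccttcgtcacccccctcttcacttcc
Tubb2b: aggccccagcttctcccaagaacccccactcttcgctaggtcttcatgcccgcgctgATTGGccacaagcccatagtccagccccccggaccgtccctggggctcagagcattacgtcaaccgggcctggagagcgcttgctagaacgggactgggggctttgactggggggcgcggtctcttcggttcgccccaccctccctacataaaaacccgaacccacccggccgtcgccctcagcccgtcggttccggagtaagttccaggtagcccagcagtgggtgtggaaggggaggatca
Tubb4a: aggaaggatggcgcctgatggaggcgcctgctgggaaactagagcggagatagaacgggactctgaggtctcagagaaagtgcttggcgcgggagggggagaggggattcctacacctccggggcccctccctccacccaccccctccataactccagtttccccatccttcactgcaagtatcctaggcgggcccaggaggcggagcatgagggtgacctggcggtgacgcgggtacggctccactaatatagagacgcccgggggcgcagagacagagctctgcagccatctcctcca
Counted from the start, the Tuba1c window held CCAAT at -242 and -123 and GGGCGG at -97 and, on the opposite strand, at -217. The Tubb2b window held 1 CCAAT match, on the opposite strand, at -193, and the Tubb4a window held neither motif. Of the windows not shown, those of Tubb6 and Tubb5 (higher), Tubb3 (lower) and Tuba1b (almost the same level) held both motifs. Those of Tuba4a (lower) and Tubb2a (overlapping ranges) held GGGCGG and no CCAAT. Whether the motifs go with the direction of change was not tested. Among the windows of all 10 isotypes, 7 held CCAAT and 8 held GGGCGG, against 37.5% and 33.1% of all 33469 promoter windows of the same length. The AP-1 motif TGANTCA was in 0 of the 10 and in 7.33% of all windows. The matches shown do not overlap each other, and a match is a description of letters and not a binding site.

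To compare 1 gene between libraries, values are given as CPM, which are counts scaled to library size by TMM. To compare genes with each other they are given as TPM, which also divide by transcript length. Total counts ran from 8911339 to 12383368 per library, and 14421 genes were tested. Normal control 4 carried skeletal muscle transcripts (4 markers summing to 1968 CPM, against at most 12.5 in any vehicle library). Normal control 6 had the lowest Tubb4a of its group and the lowest summed myelin and oligodendrocyte markers (13525 CPM). Leaving out both together changed no count of isotypes past the threshold.

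In vehicle against normal control, 7 of the 9 isotypes passed edgeR's quasi-likelihood test at an adjusted p of 0.05, 4 higher and 3 lower. Of all tested genes 54.0% passed, 26.9% higher and 27.1% lower. In SKF against normal control it was again 7 of 9, 4 higher and 3 lower, against 50.2% of all genes, 25.5% higher and 24.7% lower. These 2 comparisons share the normal control libraries and the first helped to choose the genes, so nothing is read from these counts. The ranges of 6 isotypes (Tuba1c, Tubb6, Tubb2b, Tubb3, Tuba4a and Tubb4a) did not overlap between vehicle and normal control, where 19.1% of all genes did not, and the same 6 did not overlap between SKF and normal control, where the share was 18.6%.

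**Figure D1:**
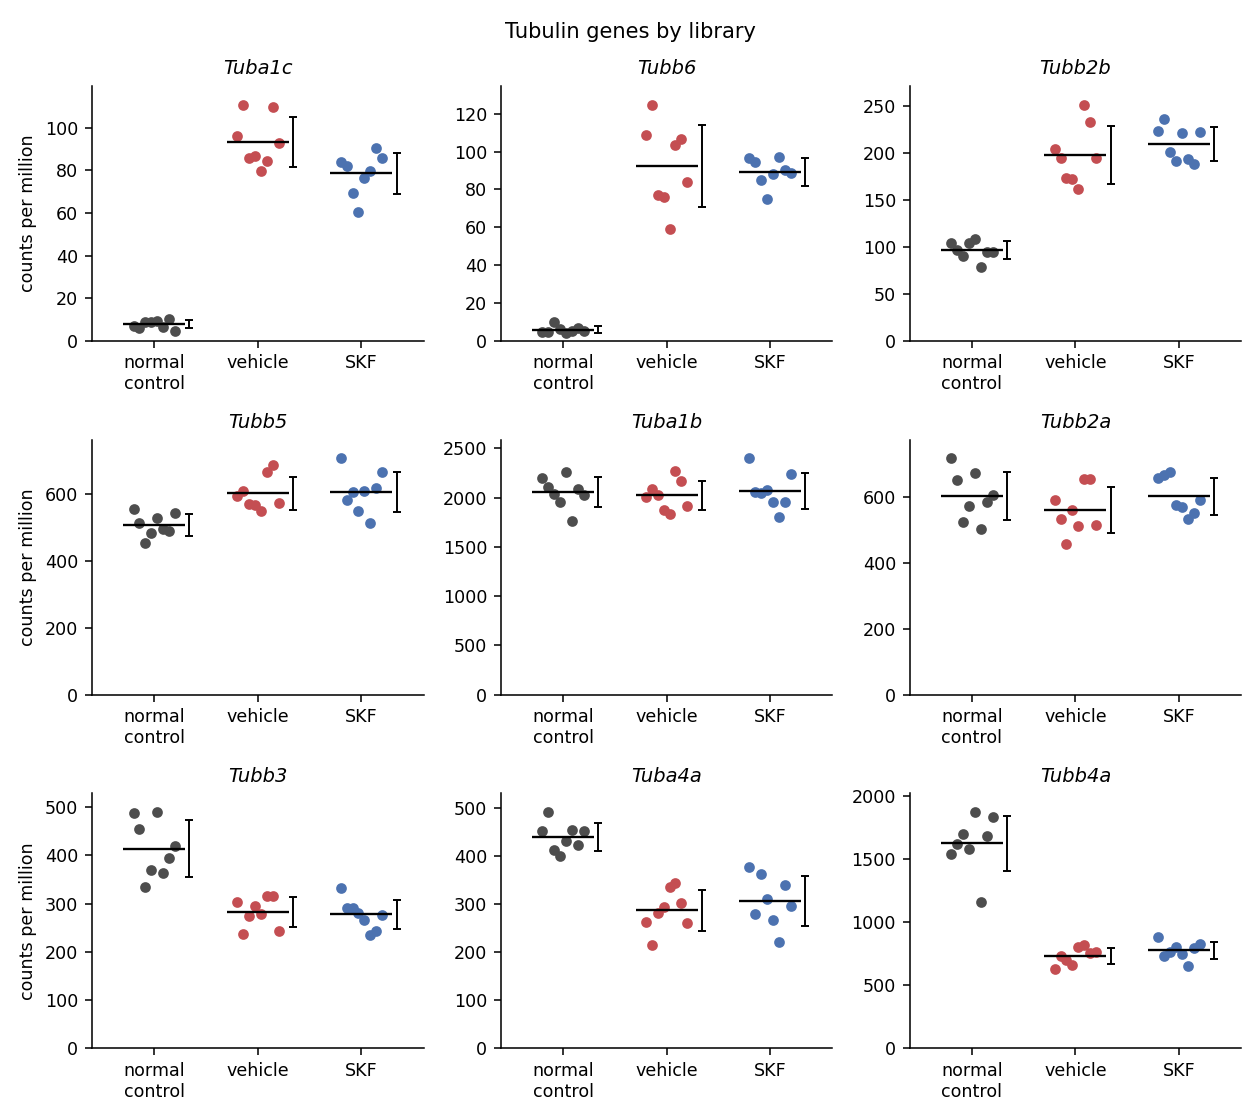
CPM (TMM-scaled) of each tubulin isotype (vertical axis, linear from 0, its own scale per gene) in the 8 normal control, 8 vehicle and 8 SKF libraries. Each point is a library and the bars are the group mean and SD. Tuba1c and Tubb6 stay at or below 10.1 in every normal control library and at or above 59.1 in every other library, while Tubb4a is lower in all 16 vehicle and SKF libraries than in any normal control library.

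Tuba1c, an alpha isotype, was scarce in normal brain and more than 10 times as abundant in both wounded groups. Its counts were 49 to 111 per normal control library, which is 4.84 (lowest), 7.91 (median) and 10.1 CPM (highest). In vehicle it stood at 79.8, 89.8 and 110.7 CPM, and in SKF at 60.4, 80.8 and 90.7 CPM. Every wounded library was far above every normal control library, with SKF 4 the lowest of the wounded and vehicle 2 the highest. The fold was 12.1 in vehicle (log2 3.59 ± 0.12, SE) and 10.2 in SKF (3.34 ± 0.12). Among all genes tested, 130 (0.901%) had a fitted rise at least as large as that of Tuba1c in vehicle and 126 (0.874%) in SKF.

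Tubb6, a beta isotype, showed the largest fold of the 9. It ran at 4.26, 5.32 and 10.1 CPM in normal control, at 59.1, 93.6 and 124.8 in vehicle and at 74.8, 89.6 and 97.3 in SKF. All 16 wounded libraries lay above all normal control libraries, of which normal control 3 was the highest. The fold was 15.6 in vehicle (log2 3.97 ± 0.16) and 15.1 in SKF (3.92 ± 0.16). The vehicle libraries varied more than the SKF libraries, with a coefficient of variation of 23.6% against 8.21%, a difference that was not tested.

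Tubb2b was higher in wounded brain, 2.05-fold in vehicle and 2.17-fold in SKF. It measured 79.0, 95.8 and 108.1 CPM in normal control, 161.9, 194.5 and 251.4 in vehicle and 188.8, 211.0 and 235.9 in SKF. No wounded library reached down into the normal control range. The log2 difference was 1.04 ± 0.08 in vehicle and 1.12 ± 0.08 in SKF. Its close paralog Tubb2a measured 503, 596 and 717 CPM in normal control, 457, 548 and 656 in vehicle and 532, 583 and 675 in SKF, with overlapping ranges and log2 differences of -0.11 ± 0.08 and -0.00 ± 0.08.

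Tubb5 was higher by a small amount. It measured 454.0, 504.8 and 555.7 CPM in normal control, 551.5, 583.9 and 687.2 in vehicle and 513.8, 608.9 and 707.6 in SKF. The ranges touched, with 7 of 8 vehicle and 6 of 8 SKF libraries above all normal control libraries. The log2 difference was 0.25 ± 0.06 in vehicle and 0.26 ± 0.06 in SKF.

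Tuba1b, the most abundant alpha isotype analysed, showed almost the same level in the 3 groups. It measured 1765, 2062 and 2262 CPM in normal control, 1830, 2014 and 2273 in vehicle and 1799, 2052 and 2397 in SKF. The log2 differences were -0.02 ± 0.06 and 0.01 ± 0.06. On the log2(TPM + 1) scale, where the median of all genes is 0.109 higher in vehicle than in normal control, the differences of Tuba1b and Tubb2a in vehicle turn positive, at 0.10 and 0.02. These lie below that shift.

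Tubb4a, of myelin and neurons, was the isotype farthest below its normal level. It measured 1156, 1651 and 1869 CPM in normal control, 628.7, 741.7 and 815.7 in vehicle and 649.8, 780.7 and 883.2 in SKF. Normal control 6 was the lowest normal library, the next was 1542, and even it lay above every wounded library. The level was 2.22 times lower in vehicle (log2 -1.15 ± 0.08) and 2.09 times lower in SKF (-1.07 ± 0.08).

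Tubb3 and Tuba4a were lower by about a common amount. Tubb3 measured 333.7, 407.0 and 489.6 CPM in normal control, 236.9, 286.7 and 316.3 in vehicle and 235.7, 278.5 and 333.1 in SKF. Tuba4a measured 401.6, 442.2 and 492.2 CPM in normal control, 215.3, 288.7 and 344.1 in vehicle and 221.1, 304.0 and 377.4 in SKF. Neither gene's wounded range reached its normal control range. The log2 differences of Tubb3 were -0.55 ± 0.08 in vehicle and -0.58 ± 0.08 in SKF, and those of Tuba4a were -0.61 ± 0.09 and -0.52 ± 0.09.

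**Figure D2:**
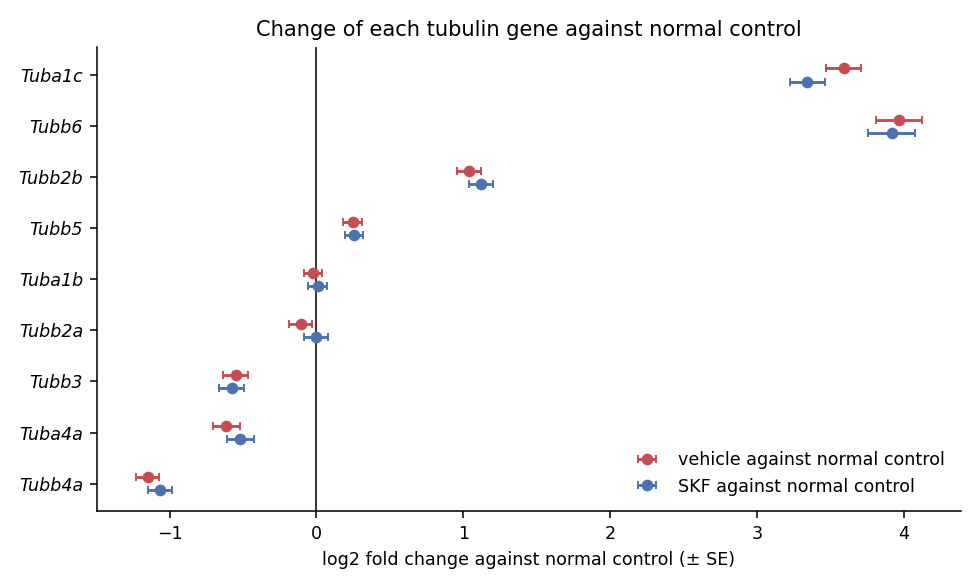
Log2 fold change of each tubulin isotype (horizontal axis) in vehicle and in SKF against the same normal control libraries, with bars of 1 SE either way. Tubb6 and Tuba1c lie above 3 in both, Tubb2b near 1, Tubb4a near -1, and the 2 comparisons are not independent because they share their controls.

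In bulk tissue, fewer cells of a type and less RNA per cell cannot be told apart. Of all tested genes 54.0% passed in vehicle against normal control, 26.9% higher and 27.1% lower, and of the neuron markers 37.5% passed. Of the myelin and oligodendrocyte markers 6 of 6 were lower in vehicle than in normal control. They summed to 13525 to 24099 CPM in normal control, 9976 to 15517 in vehicle and 7967 to 13397 in SKF. Tubb4a was lower in both wounded groups too, and whether it varies with these markers between libraries was not tested. Neuron markers (3 of 8 lower) summed to 4900 to 6538, 3472 to 5636 and 4299 to 6070, and those of immature or growing neurons (3 of 4 lower, 1 higher) to 539 to 710, 396 to 564 and 420 to 524, beside Tubb3 and Tuba4a.
Microglia and macrophage markers (7 of 7 higher) summed to 112 to 152 CPM in normal control, 332 to 499 in vehicle and 281 to 483 in SKF. Neutrophil markers (4 of 4 higher) summed to 2.78 to 5.11, 46.4 to 102.5 and 24.3 to 45.4, and markers of proliferating cells (4 of 4 higher) to 10.6 to 19.3, 42.7 to 89.4 and 50.5 to 97.8. Astrocyte markers (1 of 6 higher, 5 lower) summed to 2499 to 3160, 3897 to 5850 and 4784 to 5348. That higher sum rests on the 1 higher marker, as the median log2 difference of the 6 in vehicle was -0.68. Red blood cell markers (2 of 2 higher) summed to 189 to 319, 768 to 2419 and 693 to 2768. Endothelial markers (2 of 4 higher, 1 lower) summed to 146 to 199, 141 to 198 and 144 to 164, and fibroblast markers (1 of 4 higher) to 50.2 to 189, 121 to 175 and 107 to 175. The summed ranges of neuron, endothelial and fibroblast markers overlapped between the 3 groups. Those of myelin and of immature neuron markers overlapped between normal control and vehicle, but not between normal control and SKF. No marker of the lists given here was at 0 in every library of a group. The part of these cell types in the results was not tested.

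Per transcript length, the order of the isotypes changed between normal and wounded brain. In normal control the median TPM was 1968 for Tubb4a, 1110 for Tuba1b, 563 for Tubb3, 523 for Tubb5, 518 for Tuba4a, 292 for Tubb2a, 167 for Tubb2b, 12.4 for Tuba1c and 3.94 for Tubb6. Tubb5 and Tuba4a could not be ordered, since Tubb5 was the higher in 4 of 8 libraries. In vehicle Tuba1b led at 1185 TPM, followed by Tubb4a at 943, Tubb5 at 649, Tubb3 at 442, Tuba4a at 375, Tubb2b at 359, Tubb2a at 292, Tuba1c at 154 and Tubb6 at 79.4. The ranges of neighbours from Tubb3 to Tubb2a overlapped there.
In SKF the order was Tuba1b at 1180, Tubb4a at 967, Tubb5 at 647, Tubb3 at 416, Tubb2b at 386, Tuba4a at 381, Tubb2a at 307, Tuba1c at 139 and Tubb6 at 73.7, with the neighbours from Tubb3 to Tubb2a again overlapping, and Tuba1b and Tubb4a too, although Tuba1b was higher in all 8 libraries. Tuba1c therefore stayed below the other alpha isotypes analysed in all 3 groups. Relative to Tubb5, the length that TPM divides by is 0.649 for Tuba1c, 1.91 for Tuba1b and 0.865 for Tubb4a. It is 2.08 for Tubb2a and 0.594 for Tubb2b, and each ratio is the same in every library. The orders and the shares below rest on these lengths. In CPM the median of Tuba1b was above that of Tubb4a already in normal control (2062 and 1651). That of Tubb2a stayed above Tubb2b in vehicle (548 and 194.5) and SKF (583 and 211.0).

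The summed TPM of the 6 beta isotypes was 2575, 3580 and 4149 (lowest, median, highest) in normal control, 2591, 2737 and 3175 in vehicle and 2624, 2806 and 3342 in SKF. That of the 3 alpha isotypes was 1392, 1629 and 1827, then 1613, 1694 and 1912, then 1548, 1699 and 2067. All 3 ranges overlapped for each sum. Without Tuba1a the alpha sum is incomplete.

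Within the beta sum, Tubb4a in normal control held 54.9% ± 3.54 (SD, n = 8), and it held 33.8% ± 2.73 in vehicle and 34.5% ± 1.55 in SKF. The share of Tubb5 was 15.0%, 24.0% and 23.4%, and that of Tubb2b 4.78%, 13.2% and 13.6%. Tubb6 made up 0.134% ± 0.047, 2.81% ± 0.612 and 2.64% ± 0.311. Tubb3 held 16.6%, 15.4% and 14.6% and Tubb2a 8.54%, 10.7% and 11.2%. Within the alpha sum, Tuba1c went from 0.742% ± 0.184 to 9.37% ± 1.17 in vehicle and 7.80% ± 1.11 in SKF, Tuba4a from 32.0% to 21.8% and 22.8%, and Tuba1b from 67.2% to 68.9% and 69.4%.

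**Figure D3:**
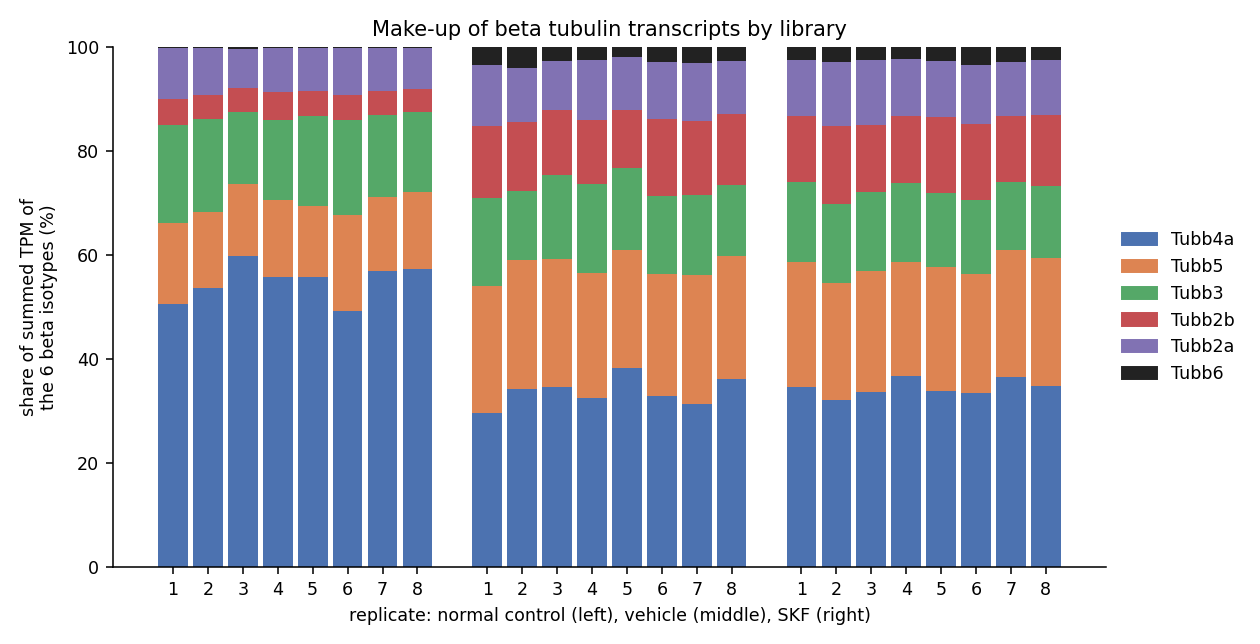
Share of each beta isotype in the summed TPM of the 6 beta isotypes (vertical axis, percent) in every library, grouped as normal control, vehicle and SKF. Tubb4a takes 49.4% to 59.8% of the sum in the normal control libraries and 29.7% to 38.3% in vehicle, and the Tubb5 and Tubb2b bands are wider in vehicle and SKF.

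In SKF against vehicle, the test of the agonist, no isotype passed. By edgeR's quasi-likelihood test 0 of 9 had an adjusted p under 0.05, as had 0 of all genes, and 1 of 9 had an unadjusted p under 0.05 against 4.96% of all genes. DESeq2 and limma also called 0 of the 9. The one was Tuba1c, with a log2 difference of -0.25 (SE 0.10, 95% interval -0.46 to -0.04, adjusted p = 0.937). Of the SKF libraries 7 of 8 were below the vehicle median for Tuba1c and 4 were below every vehicle library, and the adjusted p ran from 0.695 to 0.999 over the alternatives. The summed neutrophil markers of every SKF library also lay below those of every vehicle library, as given above. Of these 4 markers 0 passed, while 4 had an unadjusted p under 0.05 by edgeR's test, with a median log2 difference of -0.76. Their part was not tested. The share of Tuba1c in the alpha sum was lower by 1.57 percentage points in SKF (SE 0.572, 8 of 8 SKF libraries below the vehicle median). It did not pass either (two-sided exact permutation p = 0.0166, adjusted p = 0.150 over 9 isotypes, 0.0503 to 0.352 over the alternatives). As a share of counts, not scaled by length, it was lower by 0.667 points.

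The other 8 isotypes had 95% intervals of the log2 difference that include 0. These were -0.32 to 0.22 for Tubb6, -0.08 to 0.25 for Tubb2b, -0.12 to 0.14 for Tubb5 and -0.10 to 0.16 for Tuba1b. They were -0.06 to 0.27 for Tubb2a, -0.20 to 0.15 for Tubb3, -0.10 to 0.29 for Tuba4a and -0.08 to 0.25 for Tubb4a. Of all 9 intervals, the bound farthest from 0 was the -0.46 of Tuba1c. Tubb2a was above the vehicle median in 7 of 8 SKF libraries. The shares of the other 8 isotypes gave adjusted p from 0.518 to 0.609 by the two-sided exact permutation test. For the Tubb3 share too, 8 of 8 SKF libraries were below the vehicle median (unadjusted p = 0.173 by that test).

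**Figure D4:**
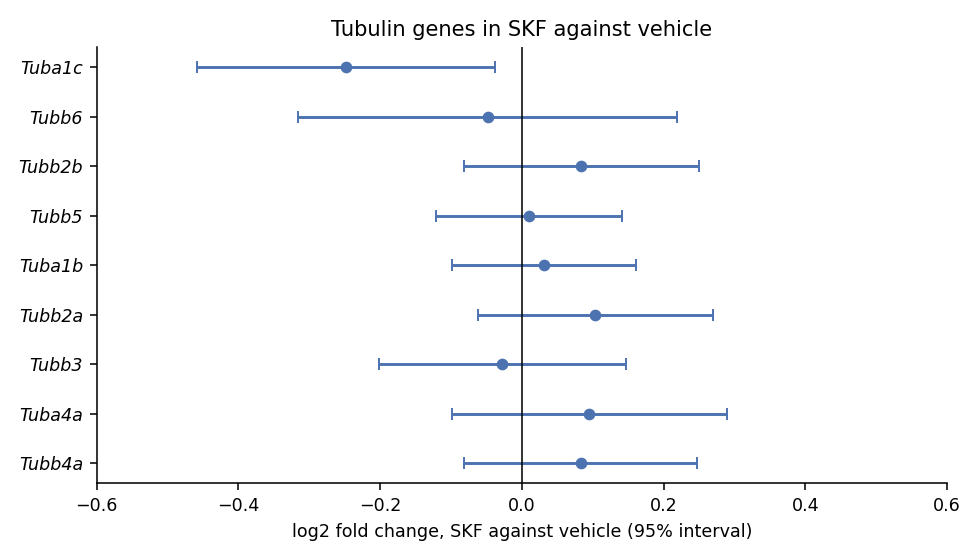
Log2 fold change of SKF against vehicle (horizontal axis) for each tubulin isotype with a 95% interval derived from edgeR's F statistic. Tuba1c at -0.25 is the one whose interval excludes 0, before adjustment over all genes.

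The genes whose profile over the 24 libraries lay nearest to that of Tuba1c were S100a11, Glipr2, Fcgr2b, Lilrb3a and Adamts7, by the mean absolute difference of log2 CPM from the normal control mean among 12624 genes. That difference was 0.225 for S100a11 and 0.292 for Adamts7. S100a11 encodes a calcium-binding S100 protein and Fcgr2b an Fc gamma receptor of immune cells. Tubb6 lay 33rd from Tuba1c, at 0.414. Nearest to Tubb6 were Cd44, the hyaluronan receptor, at 0.180, Bcl3 at 0.244, S100a11 at 0.282, Glipr1 at 0.283 and Maff at 0.306. Among those nearest to Tubb4a were Gprc5b at 0.0907, Tcte1_1, Sash1 and Gpr37, the last at 0.133. The profiles share their libraries and the normal control mean, and no test is attached.

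Of the 135 other genes of tubulin biology listed by name, 121 were tested, and 35 were higher and 42 lower in vehicle than in normal control by edgeR's test. That is 63.6% called, against 54.0% of all genes (26.9% higher and 27.1% lower). By list the share called ran from 33.3% (nucleation) to 100% (mitotic kinesins). It was 53.3% for motors and 60.0% for folding, both near that of all genes. The share was 66.7% for other tubulin genes, for modifying enzymes and for stabilising proteins, and 83.3% for destabilising proteins. The median log2 difference was -0.08, against -0.01 for all genes. On the log2(TPM + 1) scale limma called 44 higher and 20 lower, and of all genes 5491 of 7901 calls were higher on that scale, so the balance of directions moves with the scale for all genes and not for these lists alone. In SKF against normal control 36 were higher and 38 lower. In SKF against vehicle 0 passed and 3 had an unadjusted p under 0.05.

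Tubulin must be folded by the cytosolic chaperonin before it can form dimers. Of 20 folding genes 9 were higher and 3 lower (11 and 0 on the TPM scale), with a median of 0.07. All 8 chaperonin subunits were higher in vehicle, by 0.23 to 0.56 (log2), led by Cct4 (0.56 ± 0.06, edgeR adjusted p = 2.4e-09) and Cct3 (0.49 ± 0.06, adjusted p = 6.44e-08), and under every alternative that was run. They were higher in SKF too, by 0.24 to 0.54. This subset was grouped after its values were seen. Tbcel (-0.28 ± 0.07, adjusted p = 0.00172) and Arl2 (-0.27 ± 0.07, adjusted p = 0.00188), which act on the tubulin cofactor pathway, were lower, and 0 of the 5 cofactors Tbca to Tbce passed.

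Of 6 other tubulin genes 1 was higher and 3 lower. Tube1, the epsilon tubulin of centrioles, was higher (0.41 ± 0.12, adjusted p = 0.0056), and the beta isotype Tubb4b (-0.23 ± 0.06, adjusted p = 0.00309) and Tubg2 (-0.28 ± 0.10, adjusted p = 0.0194), a gamma tubulin, were lower by edgeR. Leaving out any 1 of 8 libraries (normal control 1, 2, 5, 6 or 8, vehicle 1, 4 or 5) left 2 lower. On the TPM scale limma called 1 of the 6 higher and 0 lower.

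Of 21 enzymes that modify tubulin 3 were higher and 11 lower (3 and 5 on the TPM scale), with a median of -0.23. Ttll7, a polyglutamylase of beta tubulin, was lower (-0.88 ± 0.10, edgeR adjusted p = 4.86e-08), and Sirt2, a tubulin deacetylase abundant in myelin, was lower too (-0.27 ± 0.05, adjusted p = 7e-05). Ttll12 was higher (0.71 ± 0.09, adjusted p = 6.78e-08), as was Vash1, a tubulin detyrosinase (0.20 ± 0.05, adjusted p = 0.00281).

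Of 18 stabilising and end-binding proteins 1 was higher and 11 were lower (2 and 6 on the TPM scale), with a median of -0.23. Mapt, which encodes tau of axons, was lower (-0.69 ± 0.05, edgeR adjusted p = 1.57e-11), as was Tppp, an oligodendrocyte microtubule protein (-0.46 ± 0.08, adjusted p = 1.52e-05). Mapre1, which encodes the plus-end protein EB1, was higher (0.46 ± 0.06, adjusted p = 1.78e-07).

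Of 12 destabilising and severing proteins 3 were higher and 7 lower (4 and 5 on the TPM scale). All 4 stathmins, which sequester tubulin dimers, were lower, among them Stmn1 (-0.64 ± 0.08, edgeR adjusted p = 1.63e-07) and Stmn3 (-0.49 ± 0.08, adjusted p = 5.89e-06), a subset grouped after its values were seen. The higher genes included Kif2c, a kinesin that depolymerises microtubules at mitotic centromeres (3.01 ± 0.34, adjusted p = 1.91e-08), and Fignl1 (2.09 ± 0.31, adjusted p = 1.97e-06).

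Of 18 nucleation genes 6 were higher and 0 lower (10 and 0 on the TPM scale), with a median of 0.17. Tpx2, a spindle assembly factor (1.43 ± 0.12, edgeR adjusted p = 4.28e-11), and Haus6, of the augmin complex (0.79 ± 0.10, adjusted p = 3.49e-07), were higher, and 0 of the 5 gamma-tubulin complex proteins Tubgcp2 to Tubgcp6 passed. Without normal control 1 the list had 9 past the threshold, 1 of them lower. All 11 mitotic kinesins tested were higher, with a median of 1.94. Kif20a (1.53 ± 0.14, adjusted p = 4.19e-10) and Kifc1 (2.17 ± 0.20, adjusted p = 5.2e-10) had the smallest p. The markers of proliferating cells given above were higher in the same comparison, and their part was not tested.

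Of 15 axonal and dendritic motor genes 1 was higher and 7 lower (2 and 4 on the TPM scale), a share of 53.3% called that is near the 54.0% of all genes. Dync1i1, a dynein intermediate chain typical of neurons, was lower (-0.67 ± 0.10, edgeR adjusted p = 1.8e-06), as was Kif1a, the synaptic vesicle precursor kinesin (-0.45 ± 0.07, adjusted p = 1.96e-06). Dync1i2, the other dynein intermediate chain, was higher (0.17 ± 0.05, adjusted p = 0.00263). The 3 kinesin-1 heavy chains Kif5a, Kif5b and Kif5c, named after their values were seen, had log2 differences of -0.08, -0.04 and -0.08 and did not pass.

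**Figure D5:**
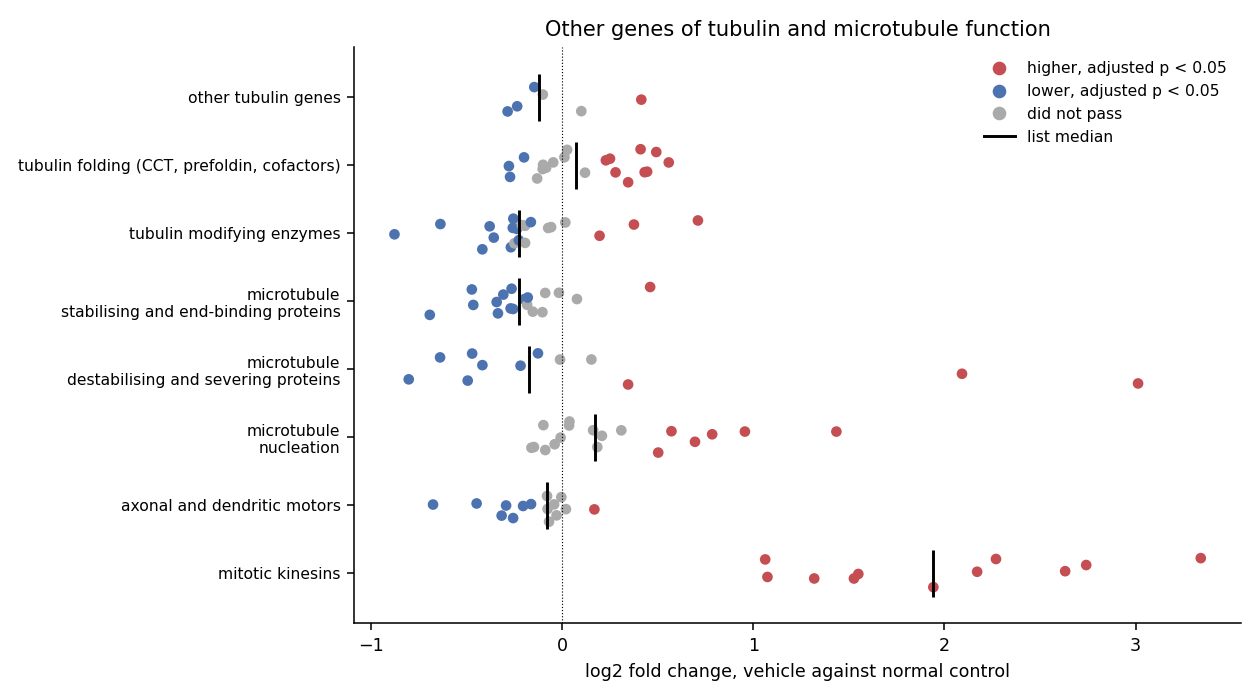
Log2 fold change in vehicle against normal control (horizontal axis) of each tested gene of 8 tubulin-related lists, 1 row per list, with the list median as a black line. Red points were higher and blue points lower at edgeR's adjusted p threshold, and grey points did not pass. All 11 mitotic kinesins lie to the right of 1, while most stabilising, modifying and destabilising genes that passed lie to the left of 0.

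Several isotypes are nearly identical in sequence. In RefSeq the gene span of Tuba1c overlaps those of Tuba1a and Tuba1b, which lie on the opposite strand. On chromosome 7 the promoter windows of Tuba1a (131995770-131996069) and Tuba1b (131972538-131972837) lie below that of Tuba1c. From these starts both genes run away from Tuba1c, so the overlap rests on spans that reach beyond the starts used here. In RefSeq 14 pseudogenes carry the name of Tuba1b, 5 that of Tuba1a and 1 that of Tuba4a. Tubb2a and Tubb2b are neighbours that do not overlap. The library kit keeps strand, but the sources used here do not give whether the counting used it, so the split of reads between such copies is uncertain.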

How the data were processed

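The authors deposited a table of whole-number read counts per gene and a table of TPM for the same 24 libraries, 8 in each of 3 groups read from the sample titles. Reads were aligned to build mRatBN 7.2 per the submitters' processing notes. The sources used here do not give the aligner, the counting program or its use of strand. The depth was 8911339 to 12383368 counts per library, with a biological coefficient of variation of 16.2%.

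The test on counts was that of edgeR 4.0.16 (R 4.3.3, TMM, filterByExpr by group, robust quasi-likelihood F test, 1 fit of all 24 libraries, 21 residual degrees of freedom). All 14421 tested genes entered the Benjamini-Hochberg adjustment, and the threshold was 0.05. Shares are from TPM and were tested by exact two-sided permutation over 12870 assignments, whose smallest p is 0.0001554. They were adjusted over the 9 isotypes analysed and use 3 alpha isotypes, since Tuba1a was not analysed here. The members, the lists and the tests were chosen with earlier results of these data known.

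Named besides the members were, of each list, up to 2 genes with the smallest edgeR p in each direction in vehicle against normal control, and the 5 genes most alike to Tuba1c, Tubb6 and Tubb4a among 12624 whose mean log2 CPM was 1 or more. Other genes were chosen after their values were seen. A gene that the rule names is not reported here. Promoters and gene neighbours came from RefSeq GRCr8, another build than the files use. Alternatives were DESeq2 1.42.0, RLE size factors, other filters, only the groups compared, limma 3.58.1 (voom, or log2 TPM with pseudocounts 1 and 0.1), a replicate block and each library left out in turn. The fit was also tested on simulated data. Tables and figures were made with pandas 2.3.3 and Matplotlib 3.10.9 in Python 3.11.15, and the permutations with NumPy 2.4.6 and SciPy 1.17.1.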

Additional observations from a re-analysis of the deposited data

Results flagged for a closer look

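In each group of 8 libraries the highest and lowest values of every isotype were compared with the nearest other library, for CPM and for the shares of TPM. Of 54 groups 5 had an end library farther out than Dixon's 95% limit, and chance gives about 1 in 20. Tubb4a was at 1156 CPM in normal control 6, the lowest of its group, with the next library at 1542. The share of Tubb5 in the beta sum was highest in the same library, at 18.3%, with the next at 15.8%. That library also had the lowest summed myelin markers of its group, at 13525 CPM. Normal control 3 had the highest Tubb6, at 10.1 CPM against 6.54 in the next library, and the highest Tubb6 share, at 0.234% against 0.150%. In SKF 6 the Tubb6 share was 3.31%, with the next SKF library at 2.76%. No flagged normal control value reached the vehicle or SKF range of its gene.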

How the results depend on the processing

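The number of isotypes past the threshold was 7 in vehicle against normal control, 7 in SKF against normal control and 0 in SKF against vehicle under every alternative run, leaving out each library included. Of all genes 54.0% passed in vehicle and 50.2% in SKF against normal control in the main fit. As stated above, nothing is read from the counts against normal control. Over those alternatives the log2 difference in vehicle against normal control ran from 3.52 to 3.75 for Tuba1c, from 3.83 to 4.12 for Tubb6 and from -1.22 to -1.01 for Tubb4a. In SKF against vehicle that of Tuba1c ran from -0.28 to -0.20, and the adjusted p of its share from 0.0503 to 0.352. Differences near 0 that never passed changed sign in some settings (Tuba1b and Tubb2a against normal control, Tubb3, Tubb5, Tubb6 and Tuba1b in SKF against vehicle). Tubulin-related genes past the threshold in vehicle against normal control numbered 64 to 78. In all genes DESeq2 called 6 in SKF against vehicle, where edgeR called 0. Samples with the same replicate number did not deviate together (correlations -0.241 to 0.0783). Over the 3 comparisons, the same-numbered library was the nearest in 0 of 24 pairs. With the replicate block 7 isotypes passed in vehicle against normal control, and 7434 genes in place of 7783. Tuba1c and Tubb6 rest on 46 to 111 counts per normal control library, so their folds carry the widest errors.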
